A study of Mus musculus with 12 samples.

Results

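The stress kinase cascade from apoptosis signal-regulating kinase 1 (ASK1) to JNK and p38 was followed through the mRNAs of 10 genes in renal tubular epithelial cells (TECs) and blood neutrophils (PMN) of mice after renal ischemia-reperfusion injury (IRI). The genes were taken by symbol and ordered by their place in the cascade. At the top stand the MAP3 kinases Map3k5, which encodes ASK1, and Map3k6, which encodes its relative ASK2. Below them stand the MAP2 kinases Map2k3, Map2k4, Map2k6 and Map2k7, the kinases Mapk8 (JNK1), Mapk9 (JNK2) and Mapk14 (p38 alpha), and the JNK substrate Ywhaz, which encodes 14-3-3 zeta. All 10 were present among the 50433 gene rows measured in TECs and the 50434 measured in PMN. All 10 were among the 14734 genes with enough counts for a test in TECs, and 9 were among the 10130 such genes in PMN. The exception was Map2k6, at 0 counts in every PMN library.

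ASK1 is held inactive by reduced thioredoxin and is set free when oxidants oxidise that partner, after which it phosphorylates itself and then the MAP2 kinases. Map2k4 and Map2k7 activate JNK, Map2k3 and Map2k6 activate p38, and Map2k4 can act on both. Each step is a phosphorylation, so that the activity of the cascade can change while its mRNAs do not. In the injured kidney, lasting JNK and p38 activity is linked to death of tubular cells, and 14-3-3 zeta takes part by binding the proapoptotic protein Bad until JNK phosphorylates it and lets Bad go.

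The 12 libraries came from wild-type mice whose renal pedicles had been clamped, and cells were taken 24 hours after IRI. TECs, sorted from the kidney as CD45-negative and Prominin-1-positive cells, gave 3 libraries from mice treated with glutamine and 3 from mice treated with vehicle (saline), and PMN from blood gave 3 of each. According to the methods the mice were young adult males of the C57BL/6J strain and glutamine was given as its alanyl dipeptide, at a time relative to reperfusion that the sources state in more than 1 way. All groups carried the ischemic injury, and mice without it were not analysed here. The replicate numbers of the PMN libraries only name them. The comparison of glutamine with vehicle addresses whether the treatment moves the mRNAs of the cascade. The study followed only part of the cascade as phosphorylated proteins. These were ASK1, JNK and the product of Ywhaz, blotted from kidney lysates, and the last also from cultured cells.

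TEC libraries held 5397370 to 10223461 counts, the shallowest being glutamine replicate 2, and PMN libraries held 20225246 to 21878446. In TECs the summed level of the 10 proximal tubule markers was 3740 to 6070 counts per 1000000 counts of the library (CPM), and that of the 9 neutrophil markers was 103 to 255 CPM. Ptprc, which encodes CD45, reached at most 2.74 CPM. In PMN the neutrophil markers summed to 23971 to 72611 CPM and the macrophage and dendritic cell markers to 7585 to 15297 CPM, with 23971 and 15297 CPM in glutamine replicate 3. Vehicle replicate 2 of the PMN stood apart, with 1480 CPM of podocyte markers and 1878 CPM of endothelial markers against at most 8.78 and 58.9 CPM in the other libraries. Vehicle replicate 1 stood apart as well, with 1026 CPM of thick ascending limb markers against at most 33.5 CPM in the others. Proximal tubule markers summed to 25.8 CPM in vehicle replicate 1, 99.8 CPM in vehicle replicate 2 and 32.5 to 99.3 CPM in the other PMN libraries. The biological coefficient of variation over all tested genes was 0.367 in TECs and 1.40 in PMN, so that PMN values are far less precise in spite of the greater depth.

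The coding stretches below show where these kinases are switched on, because the counts measure the amount of each transcript and say nothing of the phosphate carried by its protein. They were read from the longest ATG reading frame among the protein-coding transcripts of each gene in GENCODE M21 (GRCm38), 5′ to 3′, from the Asp-Phe-Gly codons to the Ala-Pro-Glu codons of the kinase domain, and for Ywhaz around its serine. Capitals mark the codons of the residues whose phosphorylation activates the kinase, for Map3k6 the codon aligned with that of Map3k5, and for Ywhaz the codon of the serine that JNK phosphorylates.
Map3k5: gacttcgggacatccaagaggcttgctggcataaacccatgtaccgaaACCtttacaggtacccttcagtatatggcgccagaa
Map3k6: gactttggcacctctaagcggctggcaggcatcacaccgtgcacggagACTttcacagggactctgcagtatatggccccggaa
Map2k4: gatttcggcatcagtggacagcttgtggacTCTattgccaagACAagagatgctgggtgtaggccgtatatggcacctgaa
Map2k7: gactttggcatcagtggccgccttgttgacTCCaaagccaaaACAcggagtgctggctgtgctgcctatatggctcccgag
Mapk8: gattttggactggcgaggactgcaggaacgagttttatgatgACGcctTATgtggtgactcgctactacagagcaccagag
Mapk9: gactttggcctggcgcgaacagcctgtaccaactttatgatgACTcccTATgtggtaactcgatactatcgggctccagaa
Mapk14: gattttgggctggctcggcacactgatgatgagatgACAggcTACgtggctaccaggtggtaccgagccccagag
Ywhaz: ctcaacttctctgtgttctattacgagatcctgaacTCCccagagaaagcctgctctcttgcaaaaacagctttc

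Counted from the first codon of these frames, the capital codon of Map3k5 is residue 845, a threonine, and that of Map3k6 is residue 807. Map2k4 carries its serine at 255 and its threonine at 259, and Map2k7 carries them at 287 and 291. The JNK pair shares the threonine at 183 and the tyrosine at 185, and Mapk14 carries the same residues at 180 and 182 with another residue between them. The Ywhaz serine is residue 184. Map3k5 and Map3k6 were identical at 63 of the 84 bases shown, Map2k4 and Map2k7 at 58 of 81, and Mapk8 and Mapk9 at 61 of 81. Over whole transcripts no 50-base stretch, the length of a read, was shared between Map3k5 and another gene, and the same held for Map3k6, Map2k3, Map2k4, Map2k6, Mapk9 and Mapk14. The share was 32.8% for Map2k7, all with the overlapping predicted gene Gm49320, 15.2% for Ywhaz with 3 predicted genes, and 0.11% for Mapk8, so that reads of Map2k7 and Ywhaz could be divided with other genes.

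Map3k5 was the member that differed most between the groups in TECs. It lies at chr10:19934472-20142753 (GRCm38, forward strand) and no other annotated gene overlaps it. Its level was 46.5, 52.6 and 66.5 CPM in vehicle replicates 3, 4 and 5 and 138.5, 122.1 and 126.0 CPM in glutamine replicates 1, 2 and 3, that is, from 471 to 653 counts with vehicle and from 608 to 1153 with glutamine. Every glutamine library lay above every vehicle library, and the gap between the groups was wider than the spread within either. The mean went from 55.2 ± 10.3 to 128.9 ± 8.56 CPM (SD, n = 3 each) between vehicle and glutamine, and the log2 fold change was 1.22 with a standard error of 0.21. In edgeR's quasi-likelihood test the p-value was 0.000122, the smallest of the 10 members and number 14 among all genes tested. After Benjamini-Hochberg adjustment over the 14734 genes it was 0.128, above the threshold of 0.05. With DESeq2, the tool named in the study's methods, the same log2 fold change had an adjusted p-value of 0.000146.

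The call for Map3k5 thus depended on the tool, and on the filter on low counts (edgeR adjusted p = 0.000475 without it), while the size of the difference hardly moved. When each TEC library was left out in turn, the log2 fold change stayed between 1.11 and 1.38, with edgeR adjusted p-values from 0.0816 to 0.510 and DESeq2 adjusted p-values from 6.56e-06 to 0.0124. Across all genes, 0% passed edgeR's adjusted threshold, 12.7% had an unadjusted p-value below 0.05 and 1.93% passed DESeq2's. Of the 10 members, 0 passed the first, 1 the second and 1 the last, in each case Map3k5. The groups did not overlap with glutamine higher in 9.01% of tested genes and with glutamine lower in 9.81%, against 1 member each, Map3k5 and Mapk9. The unadjusted and the non-overlap counts of the members thus lie near the share over all genes. In bulk libraries, fewer cells of a type and less RNA per cell cannot be told apart.

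Cell composition and injury markers were read beside Map3k5. Of the 10 proximal tubule markers 9 were higher with glutamine, 5 of them at an unadjusted edgeR p-value below 0.05, yet their summed level overlapped, at 3979 to 6070 CPM with glutamine and 3740 to 5828 CPM with vehicle. All 4 distal convoluted tubule markers were higher, 3 at that threshold, and they summed to 123 to 224 CPM with glutamine and 78.1 to 127 CPM with vehicle. Of the 4 tubular injury markers 1 was higher, and they summed to 2011 to 2658 CPM with glutamine and 2017 to 4928 CPM with vehicle. Havcr1, the injury marker KIM-1, had 792.8 and 540.6 CPM in vehicle replicates 3 and 4 but 106 CPM in vehicle replicate 5, close to the 26.2 to 94.0 CPM of the glutamine libraries. Vehicle replicate 5 also had the highest Map3k5 level of its group, and the log2 fold change without it was 1.38. Of the sort marker genes, Prom1 overlapped between the groups, at 75.0 to 83.5 CPM with glutamine and 64.6 to 76.5 CPM with vehicle. Ptprc did not overlap, at 1.81 to 2.74 CPM with glutamine and 0.10 to 1.52 CPM with vehicle. Macrophage and dendritic cell markers overlapped, at 59.3 to 129.4 CPM with glutamine and 40.8 to 81.8 CPM with vehicle. The part of these markers in the Map3k5 difference was not tested.

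**Figure D1:**
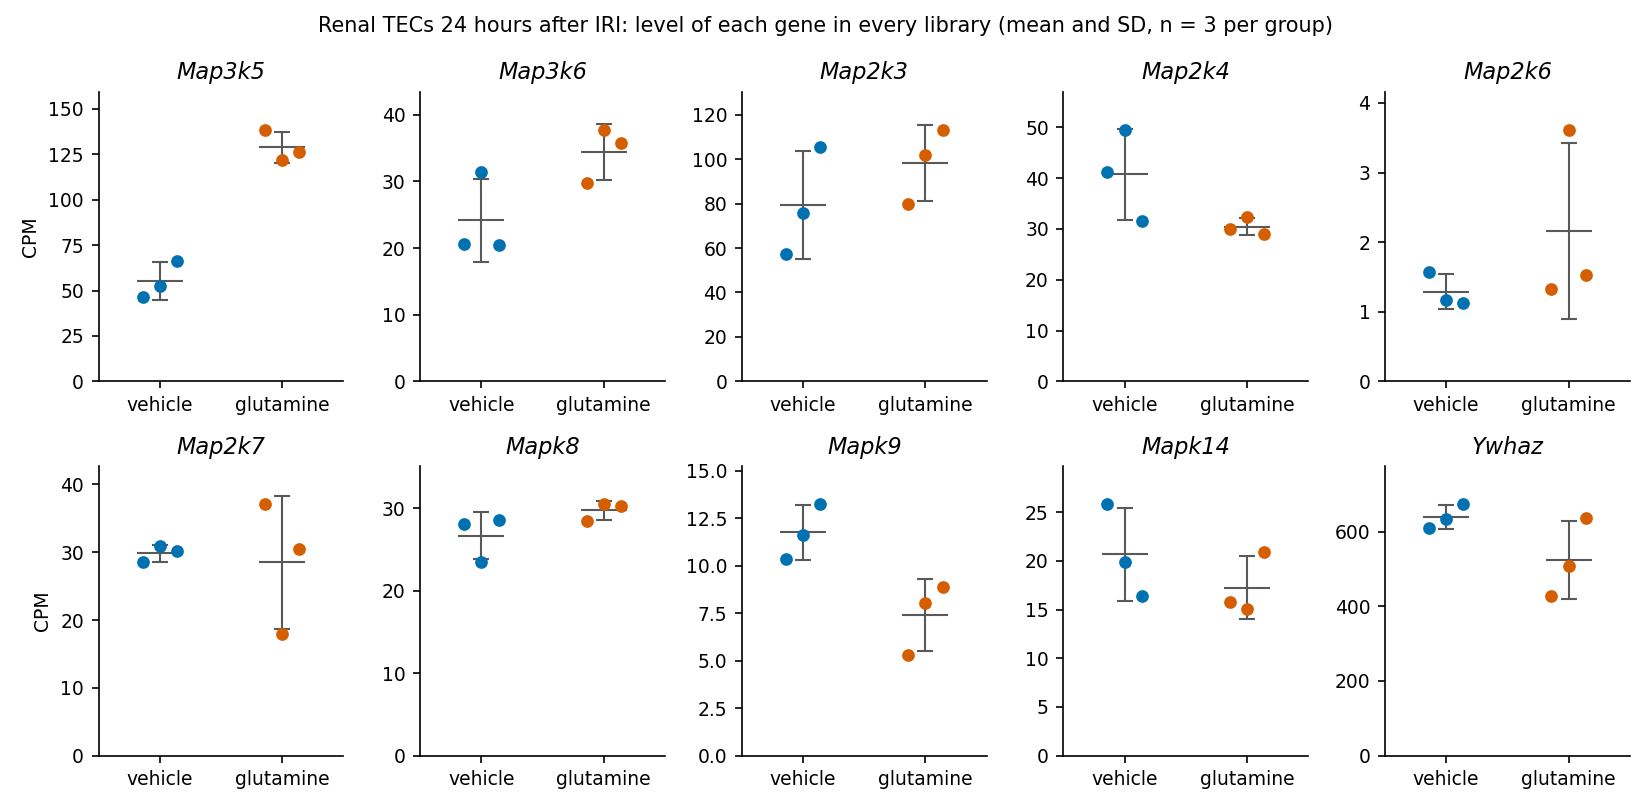
Level of each of the 10 genes in every TEC library in CPM, with a point for each library and the mean and SD of each group of 3. Map3k5 at 122.1 to 138.5 CPM with glutamine and 46.5 to 66.5 CPM with vehicle shows the clearest separation, Mapk9 separates the other way, and the other 8 genes overlap.

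Map3k6 stood at 20.6, 31.4 and 20.5 CPM with vehicle and 29.8, 37.8 and 35.7 CPM with glutamine. Vehicle replicate 4 reached into the glutamine range, and the groups overlapped. The log2 fold change was 0.51 with a standard error of 0.26 (edgeR adjusted p = 0.433). ASK2 forms a complex with ASK1, and its gene lies on another chromosome, at chr4:133240818-133252929. The direction was upward for both MAP3 kinases, with an adjusted p-value above the threshold for each in edgeR.

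The MAP2 kinases of the JNK arm showed no such gap. Map2k4 had 41.1, 49.5 and 31.6 CPM with vehicle and 29.9, 32.3 and 29.1 CPM with glutamine. The 3 glutamine libraries lay close together, and vehicle replicate 5 fell inside their range. The log2 fold change was -0.42 with a standard error of 0.24 (edgeR adjusted p = 0.477). Map2k7 had 28.5, 30.9 and 30.2 CPM with vehicle and 37.1, 17.9 and 30.5 CPM with glutamine. The glutamine libraries lay on both sides of the vehicle libraries, the lowest being the shallow glutamine replicate 2. Its log2 fold change was -0.06 with a standard error of 0.28 (edgeR adjusted p = 0.947), and the sign turned without that library or when the counts of Gm49320, at most 3.95 CPM, were added to it.

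Of the MAP2 kinases of the p38 arm, Map2k3 was well expressed and Map2k6 was close to the limit of detection. Map2k3 had 57.3, 75.7 and 105.3 CPM with vehicle and 79.8, 102 and 113.2 CPM with glutamine. The spread within each group was as large as the difference between them, and the log2 fold change was 0.31 with a standard error of 0.26 (edgeR adjusted p = 0.643). Map2k6 gave 16, 13 and 11 counts with vehicle and 11, 18 and 14 counts with glutamine. They amount to at most 3.62 CPM, and counts this low could not resolve a difference. The fitted log2 fold change was 0.71 with a standard error of 0.74 (edgeR adjusted p = 0.712), and without glutamine replicate 2 it was 0.15.

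At the level of the terminal kinases, the JNK isoforms had log2 fold changes of opposite sign in TECs, neither past the threshold. Mapk9 had 10.4, 11.6 and 13.3 CPM with vehicle and 5.29, 8.03 and 8.88 CPM with glutamine. All glutamine libraries were below all vehicle libraries, at 40 to 81 counts against 105 to 130. The log2 fold change was -0.67 with a standard error of 0.34 (edgeR adjusted p = 0.443, unadjusted p = 0.0787). Mapk8 had 28.1, 23.5 and 28.5 CPM with vehicle and 28.5, 30.5 and 30.3 CPM with glutamine. The groups met at 28.5 CPM, and the log2 fold change was 0.16 with a standard error of 0.22 (edgeR adjusted p = 0.8).

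Mapk14, the p38 isoform on which most stress signals converge, had 25.9, 19.9 and 16.4 CPM with vehicle and 15.7, 15.1 and 20.9 CPM with glutamine. Glutamine replicate 3 lay inside the vehicle range, so that the groups overlapped, and the log2 fold change was -0.26 with a standard error of 0.28 (edgeR adjusted p = 0.724). Ywhaz was the most abundant member, with 610.5, 632.6 and 673.7 CPM with vehicle and 427.6, 506.8 and 635.7 CPM with glutamine. Glutamine replicates 1 and 2 lay below all vehicle libraries, and glutamine replicate 3 lay among them. Its log2 fold change was -0.29 with a standard error of 0.20 (edgeR adjusted p = 0.580). The predicted genes that share sequence with Ywhaz were at 0 in every TEC library.

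Of the 10 members in TECs, 5 had a positive and 5 a negative log2 fold change, with a median of 0.05, while 50.6% of all tested genes were positive and their median was 0.01. The values ran from -0.67 for Mapk9 to 1.22 for Map3k5.

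**Figure D2:**
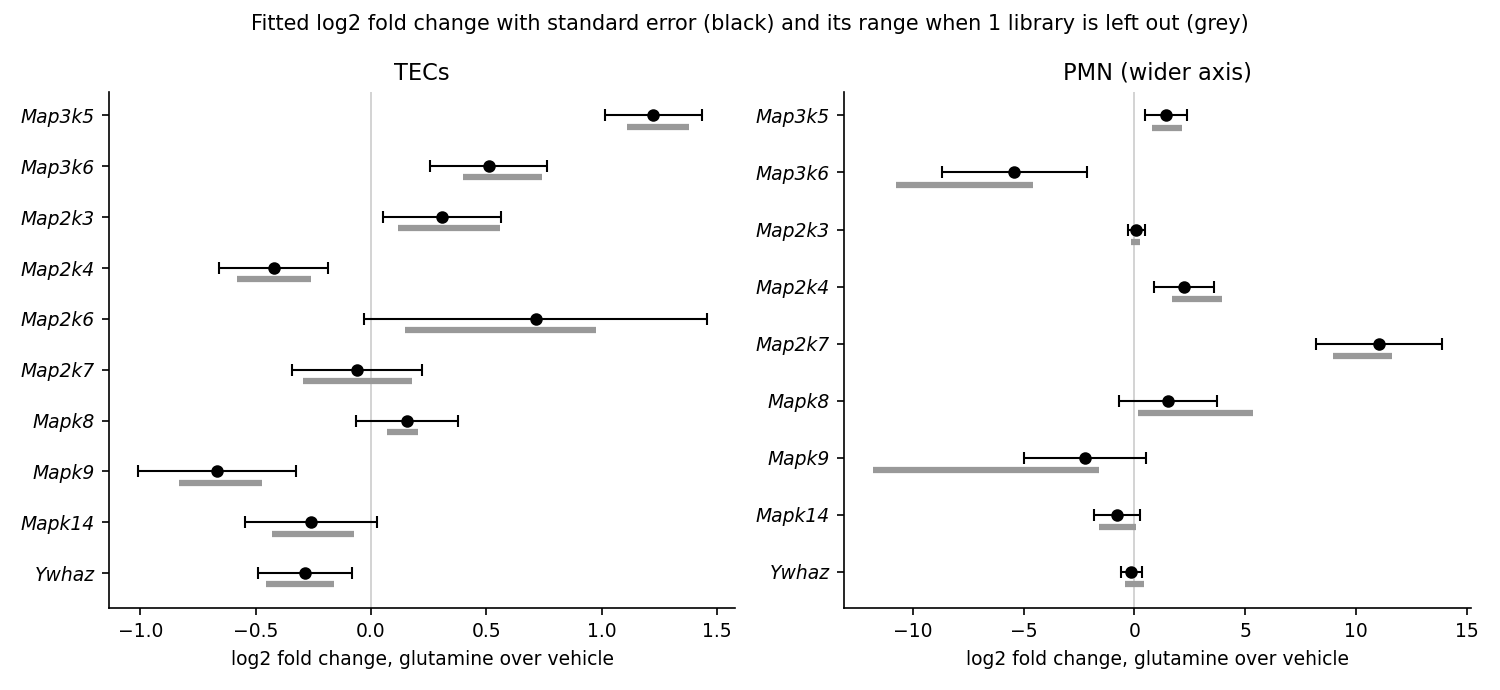
Fitted log2 fold change of glutamine over vehicle for each tested gene in TECs (left) and PMN (right, with a wider axis), with its standard error in black and, in grey, its lowest and highest value when 1 of the 6 libraries was left out. In TECs only Map2k7 crosses 0, and the range of Map3k5, 1.11 to 1.38, lies farthest from it. In PMN Ywhaz, Map2k3 and Mapk14 cross 0.

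Levels were also set side by side within TECs, as CPM per kilobase of the longest annotated transcript, so that long and short genes can be compared. Over the 6 libraries Ywhaz led with a mean of 176.7 ± 28.6 CPM per kb (SD), followed by Map2k3 with 40.4 ± 9.72. Ywhaz was above Map2k3, and Map2k3 above Map3k5, in all 6 libraries. Map3k5 came next with 23.7 ± 1.57 CPM per kb in the glutamine group and 10.1 ± 1.89 in the vehicle group. The next genes, Map2k4 with 9.63, Map2k7 with 8.28, Map3k6 with 6.76, Mapk14 with 5.28 and Mapk8 with 4.90 CPM per kb, did not differ from their neighbours beyond the spread at this length, since no neighbouring pair among them kept its order in all 6 libraries. Map3k5 was above Map2k4 in 4 of the 6 libraries. Mapk8 was above Mapk9 in all 6, and Mapk9, at 2.04 CPM per kb, was above Map2k6, at 0.825, in 5. With the mean transcript length as the divisor the values were higher, such as 485.3 for Ywhaz and 46.8 for Map3k5, Ywhaz still led and Map2k6 still came last, and Map2k3 was above Map3k5 in 5 libraries. With that divisor Map2k4 was above the next gene in all 6 libraries, and Mapk8 was above Mapk14 in all 6, against the order given by the longest transcript.

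**Figure D3:**
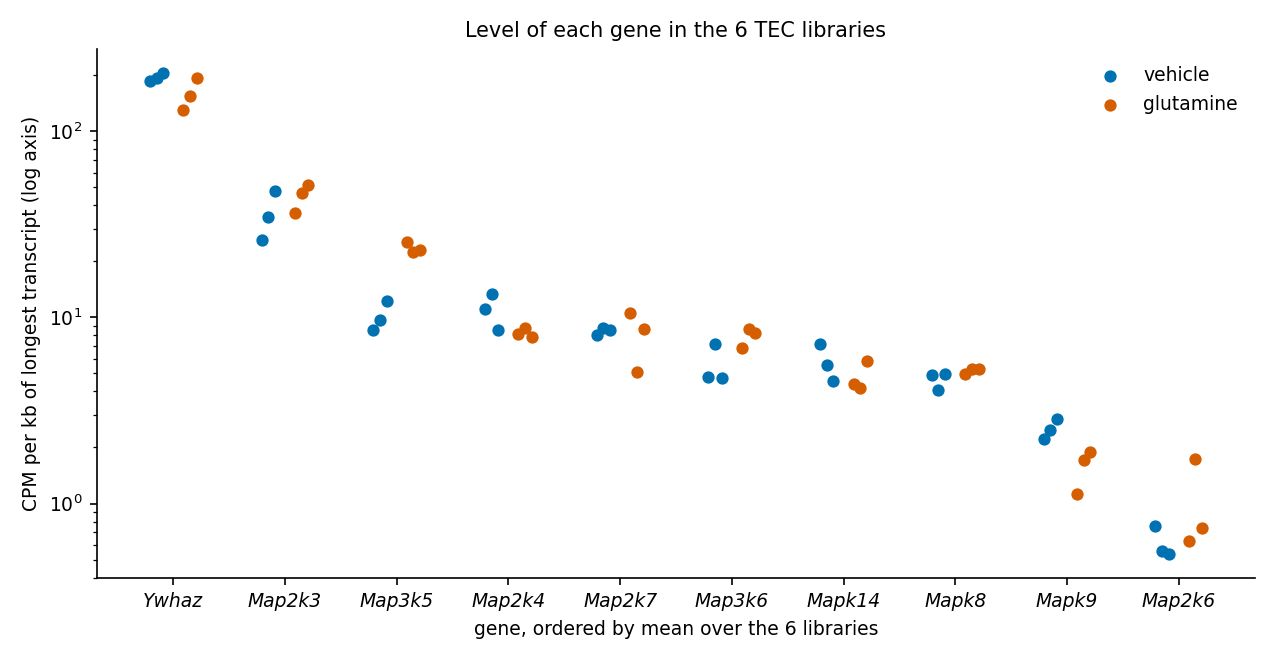
Level of each gene in the 6 TEC libraries as CPM per kilobase of its longest transcript, on a log axis, with genes ordered by their mean and vehicle and glutamine libraries as separate points. Ywhaz, at 130.1 to 204.9 CPM per kb, lies above all other genes, and Map2k6, at 0.537 to 1.73, lies lowest.

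The balance between paired kinases was measured as the log2 ratio of their counts inside each library, with 0.5 count added to each, which does not depend on how libraries are scaled. In these two-sided exact permutation tests, 3 libraries against 3 cannot give a p-value below 0.1, and 9 ratios were tested over both cell types. The ratio of Mapk9 to Mapk8 was -1.44, -1.01 and -1.10 in the vehicle TECs and -2.42, -1.91 and -1.76 in the glutamine TECs. JNK2 mRNA was thus the scarcer in all libraries, and more so in each glutamine library than in any vehicle library, with a difference of -0.85 (exact permutation p = 0.1, adjusted p = 0.45). The ratio of Map3k5 to Map3k6 was 1.17, 0.75 and 1.70 with vehicle and 2.21, 1.69 and 1.82 with glutamine. Vehicle replicate 5 lay just above glutamine replicate 2, so that the groups overlapped, with a difference of 0.70 (exact permutation p = 0.2, adjusted p = 0.45).

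In the remaining TEC ratios the groups overlapped. The difference was -0.41 for Mapk14 to Mapk8 (exact permutation p = 0.2), -0.27 for Map2k4 to Map2k7 (exact permutation p = 0.6) and -0.27 for Map2k3 to Map2k6 (exact permutation p = 0.6). In every TEC library Map2k3 exceeded Map2k6 by 4.78 to 6.49 on the log2 scale. In PMN the Map2k3 to Map2k6 ratio has no value, and the other 4 differences had exact permutation p-values of 0.2 to 0.5.

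**Figure D4:**
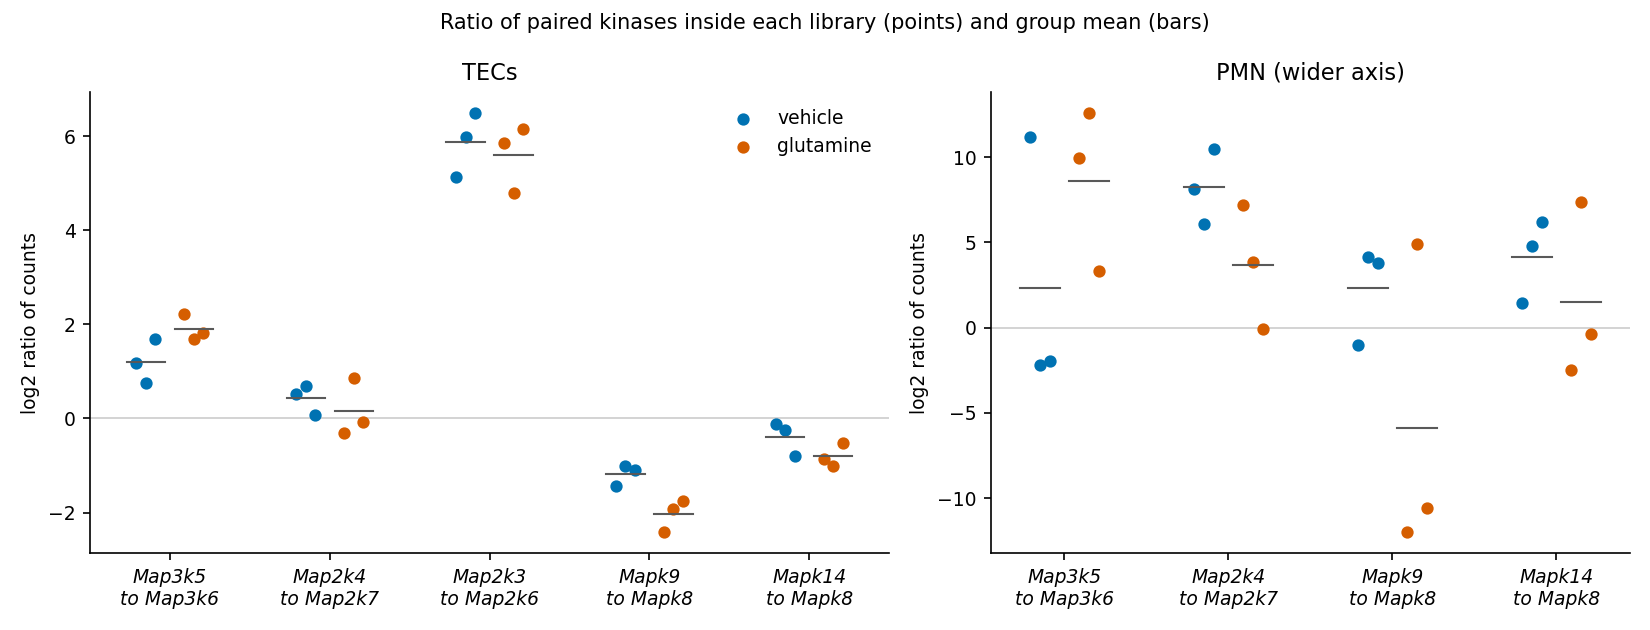
Log2 ratio of the counts of paired kinases inside each library, with a point for each library and a bar at the group mean, in TECs (left) and PMN (right, with a wider axis). In TECs the ratio of Mapk9 to Mapk8 runs from -2.42 to -1.76 with glutamine and from -1.44 to -1.01 with vehicle, and in PMN the points of all ratios overlap between groups.

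Around the cascade, the regulators of ASK1 were mostly lower with glutamine in TECs: of 10 tested, 8 were lower and 2 higher, with a median log2 fold change of -0.11, and 0 passed edgeR's adjusted threshold. Unadjusted p-values below 0.05 were found for 3, all of them lower, against 12.7% of all tested genes. The study named thioredoxin and glutaredoxin from these libraries, so that the direction of Txn1 and Glrx is not independent evidence. Txn1, which encodes the thioredoxin that inhibits ASK1, had 435.9, 418 and 321.5 CPM with vehicle and 248.4, 198.7 and 241.4 CPM with glutamine. The groups did not overlap, and the log2 fold change was -0.77 with a standard error of 0.20 (edgeR adjusted p = 0.217, DESeq2 adjusted p = 0.0303). Glrx, which encodes the glutaredoxin that also binds ASK1, had 891.9, 1141.1 and 837.6 CPM with vehicle and 478.3, 492.1 and 694.2 CPM with glutamine. These groups were apart as well, with a log2 fold change of -0.79 and a standard error of 0.22 (edgeR adjusted p = 0.223, DESeq2 adjusted p = 0.0392). Gstm1, a glutathione S-transferase that can bind ASK1, was named after its value was seen and had a log2 fold change of -0.54 (edgeR adjusted p = 0.392).

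The other 14-3-3 isoforms went with Ywhaz in sign: 5 of 6 were lower and Sfn was higher, with a median log2 fold change of -0.34. The groups did not overlap for 3 of the 6, with glutamine lower, as in 9.81% of all tested genes, and 0 had an edgeR p-value below 0.05, unadjusted or adjusted. Of the 14 other MAP3 kinases tested, 6 were higher and 8 lower, with log2 fold changes from -0.68 to 0.50 and 0 past that threshold, unadjusted or adjusted. All 5 tested scaffolds of the JNK module were higher, from 0.12 to 0.62 with a median of 0.31, and 0 passed it in either form. Among the remaining p38 and JNK isoforms 3 were tested and 0 passed. Mapk12, p38 gamma, named after its values were seen because of its abundance, had 340.2, 540 and 405.1 CPM with vehicle and 176.1, 290 and 506 CPM with glutamine, which overlap.

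Of the 10 phosphatases of these kinases 6 were higher and 4 lower, and 1 of the 10 had an unadjusted p-value below 0.05, near the 12.7% of all tested genes. This was Dusp8, a JNK and p38 phosphatase, with 14.1, 10.1 and 10.4 CPM with vehicle and 23.1, 16.5 and 16.8 CPM with glutamine. The groups did not overlap, and the log2 fold change was 0.70 with a standard error of 0.30 (edgeR adjusted p = 0.359). Of 5 tested effector kinases of p38, 3 were higher and 2 lower. Rps6ka5, which encodes MSK1, had 1.78, 1.79 and 1.73 CPM with vehicle and 3.12, 1.81 and 10.4 CPM with glutamine. Its log2 fold change of 1.54 (standard error 0.69, edgeR adjusted p = 0.383) was set mainly by glutamine replicate 3.

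Transcription factors downstream of JNK and p38 showed 5 of 9 higher, with log2 fold changes from -0.37 to 0.38 and 0 at an unadjusted or adjusted edgeR p-value below 0.05. Among BCL2 family genes downstream of JNK 5 of 6 tested were lower in TECs, with a median of -0.25, and 1 of the 7 listed had too few counts for a test. The study picked Bad and Hrk from these libraries, so that their direction is not independent evidence. No value is given here for Hrk. Bad, the protein that 14-3-3 zeta holds, had 57.4, 48.0 and 21.0 CPM with vehicle and 18.5, 18.3 and 14.5 CPM with glutamine. The groups did not overlap, though vehicle replicate 5 lay close to the glutamine libraries, and the log2 fold change was -1.30 with a standard error of 0.35 (edgeR adjusted p = 0.217, DESeq2 adjusted p = 0.0340). Bax, which permeabilises the mitochondrial membrane, had 19.8, 16.9 and 4.38 CPM with vehicle and 1.68, 7.63 and 3.18 CPM with glutamine (edgeR adjusted p = 0.298), and here the groups overlapped. Bad and Bax were highest in vehicle replicate 3 and lowest of their group in vehicle replicate 5, the order in which Havcr1 stood in the vehicle libraries, and the part of tubular injury in these values was not tested. In the ERK modules, set beside the cascade for comparison, 7 of 8 genes were lower. Map2k1, the kinase of ERK, had 35.0, 38.7 and 28.4 CPM with vehicle and 21.5, 20.1 and 25.9 CPM with glutamine (log2 fold change -0.60, standard error 0.24, edgeR adjusted p = 0.342).

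The genes whose levels followed that of Map3k5 most closely over the 6 TEC libraries were Pik3c2a, a lipid kinase, with a Pearson r of 0.999 on log2 CPM, Cep57, a centrosomal protein, with 0.996, and Mafk, a small Maf transcription factor, with 0.992. They were the first 3 of 8416 genes with a mean of at least 10 CPM, of which 182 had r above 0.9. The 6 libraries share the split between treatments and their scaling, so that these values describe likeness only. Pik3c2a had 27.9, 31.3 and 37.3 CPM with vehicle and 63.5, 60.9 and 60.3 CPM with glutamine. That its groups are apart follows from the choice by likeness and is given as a description.

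Beside the PMN values stand marker levels that also separated the groups, and their part in the results was not tested. The B cell markers summed to 20.9 to 33.4 CPM with glutamine and 0.50 to 2.65 CPM with vehicle, and the tubular injury markers to 1746 to 2176 and 1096 to 1650 CPM. The monocyte markers were the other way round, at 595.2 to 859.1 CPM with glutamine and 945.9 to 1318 CPM with vehicle. Of the tubular injury markers, Krt20 was at 0 in every PMN library and Havcr1 was found only in vehicle replicate 3, at 5.33 CPM. Their sum thus came almost wholly from Lcn2 and Vcam1 and is not read as tubular injury. Ptprc, the leukocyte gene of CD45, had 753.9 to 1150.5 CPM with glutamine and 316.6 to 568.5 CPM with vehicle. In PMN the spread between libraries of the same group differed from member to member. Map2k3, a MAP2 kinase of the p38 arm, had 156.4, 259 and 217 CPM with vehicle and 171.5, 277.7 and 223.6 CPM with glutamine. The groups had nearly the same range, and the log2 fold change was 0.09 with a standard error of 0.38 (edgeR adjusted p = 1). Ywhaz was again the most abundant, with 1054.2, 443.3 and 382.9 CPM with vehicle and 721.1, 647.1 and 336.8 CPM with glutamine. Glutamine replicates 1 and 2 lay within the vehicle range, and the log2 fold change was -0.14 with a standard error of 0.49 (edgeR adjusted p = 1). The overlapping-sequence gene Gm4202 had at most 39.9 CPM in PMN, and adding such genes to Ywhaz kept the sign. Without vehicle replicate 1 the log2 fold change of Ywhaz was 0.44 and that of Map2k3 was -0.11.

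Map3k5 in PMN had 57.8, 12.8 and 26.3 CPM with vehicle and 78.2, 145 and 38 CPM with glutamine. Glutamine replicates 1 and 2 lay above all vehicle libraries, and glutamine replicate 3 lay among them. The log2 fold change of 1.43 was of the same sign as in TECs, but its standard error was 0.94 (edgeR adjusted p = 1, unadjusted p = 0.172, DESeq2 adjusted p = 0.715). Without each library in turn it ran from 0.81 to 2.14, with 2.14 without vehicle replicate 1 and 1.04 without vehicle replicate 2. Vehicle replicate 1 was the library set apart by thick ascending limb markers, and vehicle replicate 2 the one set apart by podocyte and endothelial markers. The TEC and PMN tables were normalized and tested separately, and no difference between the cell types was tested.

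Map3k6 and the kinases of the JNK arm varied widely in PMN. Map3k6 had 0, 59.3 and 102.3 CPM with vehicle and 0.0527, 0 and 3.71 CPM with glutamine. Only vehicle replicates 2 and 3 held more than a few CPM, vehicle replicate 1 held none, and the groups overlapped (log2 fold change -5.42, standard error 3.26, edgeR adjusted p = 1). Without vehicle replicate 2 the log2 fold change was -5.34, and without glutamine replicate 3 it was -10.74 (edgeR adjusted p = 0.904). The remaining glutamine libraries held 1 and 0 counts, so that Map3k6 then passed the filter on low counts only through vehicle libraries. DESeq2 gave an adjusted p-value of 0.0201 there, against 0.543 with all libraries, and no difference is read from it. Map2k4 had 6.97, 1.55 and 33.4 CPM with vehicle and 89.6, 77.5 and 31.5 CPM with glutamine. Vehicle replicate 3 exceeded glutamine replicate 3, and the log2 fold change was 2.24 with a standard error of 1.35 (edgeR adjusted p = 1). Without vehicle replicate 3 the log2 fold change was 3.95 (edgeR adjusted p = 0.865). DESeq2 then gave an adjusted p-value of 0.0183 against 0.57 with all libraries.

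Map2k7 was the member whose PMN groups did not overlap. It was at 0 counts in the 3 vehicle libraries and had 11, 114 and 650 counts, or 0.579, 5.37 and 32.6 CPM, in the glutamine libraries. Thus all glutamine libraries held the transcript, at very unequal levels, and no vehicle library did. Against the limit that 0 counts allow, 3 counts over the vehicle group or 0.0477 CPM, the glutamine mean of 12.9 CPM was at least 269.6-fold higher, a bound set mostly by glutamine replicate 3. The edgeR adjusted p-value was 0.911 and the unadjusted one 0.0121, while DESeq2 gave an adjusted p-value of 0.00224, and 0.0527 without glutamine replicate 3. Map2k7 passed the filter on low counts only through its glutamine libraries. In all, 0.632% of the tested PMN genes were at 0 in all 3 libraries of 1 group.

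Mapk8 had 48.5, 2.10 and 0.238 CPM with vehicle and 107.2, 0.424 and 37.5 CPM with glutamine. Each group held both near-silent and well-expressed libraries, and the log2 fold change of 1.51 had a standard error of 2.22 (edgeR adjusted p = 1). It was 5.33 without vehicle replicate 1 and 0.16 without glutamine replicate 1. Mapk9 had 23.8, 37.0 and 3.66 CPM with vehicle and 0, 13.7 and 0 CPM with glutamine. Glutamine replicate 2 lay inside the vehicle range, and the log2 fold change was -2.23 with a standard error of 2.76 (edgeR adjusted p = 1). Without that library the glutamine group of Mapk9 held 0 counts, and the gene passed the filter on low counts only through vehicle libraries. DESeq2 then gave an adjusted p-value of 0.000251 and edgeR one of 0.952. Because that fit compares the vehicle group with 0 counts, no difference is read from it. Mapk14 had 134.4, 58.0 and 19.1 CPM with vehicle and 19.0, 74.4 and 28.5 CPM with glutamine, which overlap, and its log2 fold change was -0.79 with a standard error of 1.03 (edgeR adjusted p = 1), turning to 0.068 without vehicle replicate 1. Map2k6 was at 0 in all 6 PMN libraries, which allows up to 0.0477 CPM over the vehicle group and 0.0499 CPM over the glutamine group for counting error alone.

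Of the 9 members tested in PMN, 0 passed edgeR's adjusted threshold, as did 0% of the 10130 genes tested. An unadjusted p-value below 0.05 was found for 1 member and 3.42% of genes, and a DESeq2 adjusted p-value below 0.05 for 1 member and 2.8% of genes, in both cases Map2k7. The PMN groups did not overlap with glutamine higher in 5.87% of genes and 1 member, again Map2k7, and with glutamine lower in 4.63% of genes and 0 members. Since Map2k7 passed the filter on low counts only through its glutamine libraries, nothing is concluded about the members from these tallies. The median log2 fold change of the 9 was 0.09, against 0.00020 over all genes tested.

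**Figure D5:**
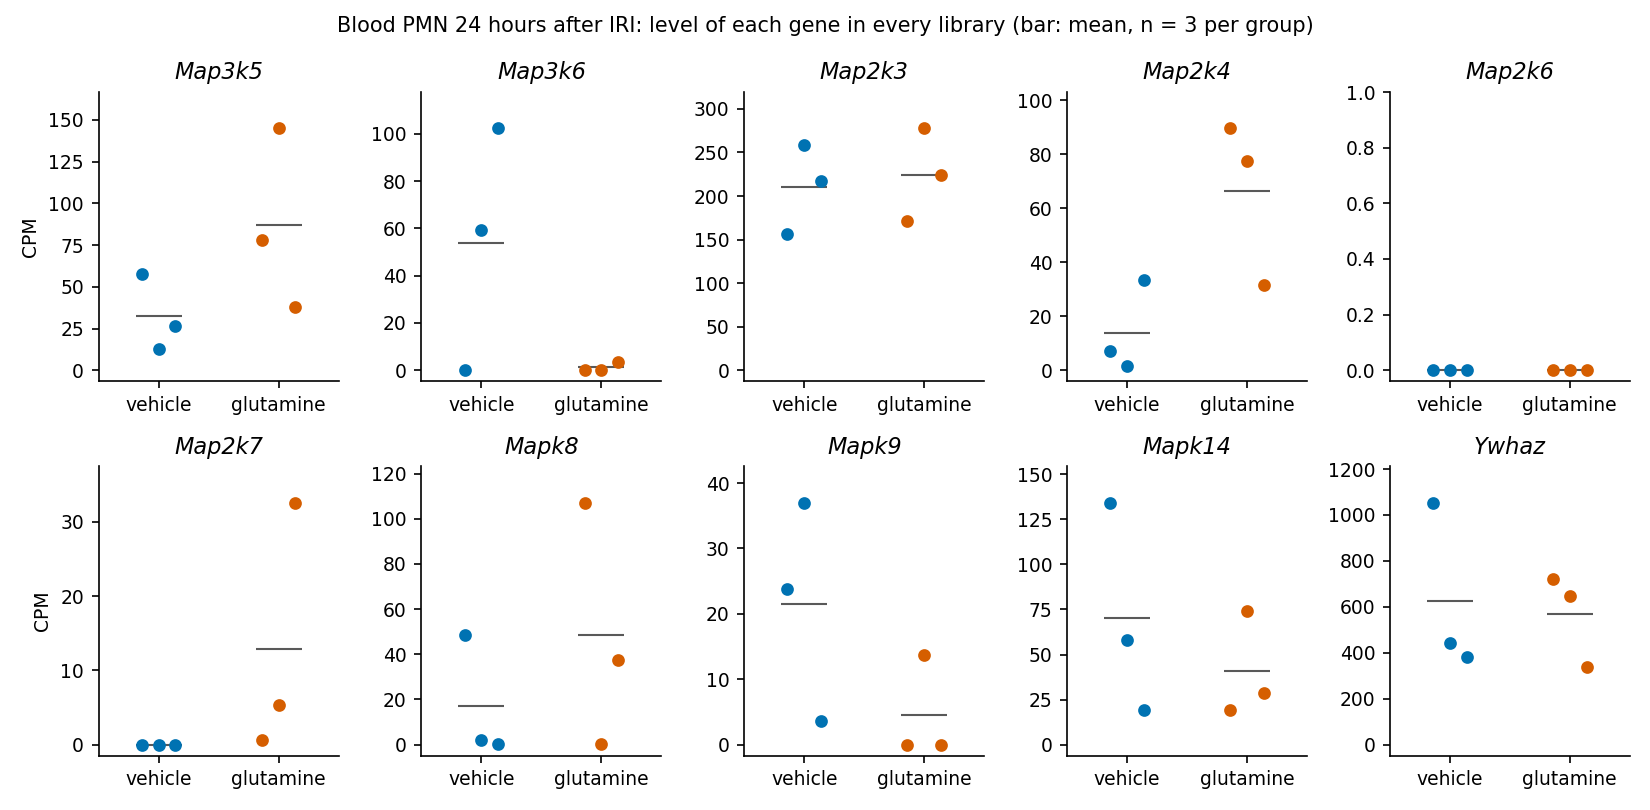
Level of each of the 10 genes in every PMN library in CPM, with a point for each library and a bar at the mean of each group of 3. Map2k3 and Ywhaz are present in all libraries, Map2k6 is at 0 in all, and Map3k6, Mapk8 and Mapk9 are near 0 in some libraries and well expressed in others.

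Per kilobase of transcript, Ywhaz led the PMN levels with 181.7 ± 82.1 CPM per kb and Map2k3 followed with 99.0 ± 21.6 (SD over 6 libraries), each above the next gene in all 6 libraries, and below Map2k3 no neighbouring pair kept its order in all libraries. Of the ASK1 regulators 8 of 10 tested were lower with glutamine in PMN, as were 4 of 6 other 14-3-3 isoforms and 4 of 7 phosphatases, while 6 of 10 other MAP3 kinases, 3 of 3 scaffolds, 4 of 6 p38 effector kinases, 6 of 9 transcription factors, 3 of 5 BCL2 family genes and 5 of 7 ERK genes were higher. Among all these genes 3 had an unadjusted edgeR p-value below 0.05, a threshold that 3.42% of all PMN genes passed, and 0 an adjusted one. Fos, an immediate early gene downstream of JNK and p38, had 1830, 1844 and 2289 CPM with vehicle and 2616, 3190 and 4595 CPM with glutamine. The groups did not overlap, and the log2 fold change was 0.80 with a standard error of 0.25 (edgeR adjusted p = 0.958, DESeq2 adjusted p = 0.606). Ppm1d, a phosphatase of p38, had 53.9, 3.46 and 45.9 CPM with vehicle and 0, 0 and 0.15 CPM with glutamine (edgeR adjusted p = 0.895, DESeq2 adjusted p = 0.000118). Bmf, a proapoptotic BCL2 family member that JNK phosphorylates, was at 0 in the vehicle libraries and had 32.0, 3.68 and 113 CPM with glutamine (edgeR adjusted p = 0.738, DESeq2 adjusted p = 2.14e-05). Like Map2k7, Ppm1d and Bmf were near 0 in all libraries of 1 group and uneven across the other, and each passed the filter on low counts only through the group in which it is high.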

How the data were processed

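RNA of sorted TECs (6 libraries) and blood PMN (6 libraries) was measured. Per the submitters' processing notes, reads were trimmed with Trim Galore 0.6.4 and quantified with Salmon 1.0.0 with mm10 named as the build, and the authors deposited an estimated count per gene symbol, not normalized. Reads were 50 bases long, without molecular identifiers, so that floors cover counting error only. In the deposited PMN table, whose values needed decoding, 3.2% of values had stray points among their digits and 0.391% had turned into dates, none in a member's row. It gives 2 columns per library, whose difference the sources do not explain (r of log2 counts at least 0.995, against at most 0.824 between libraries), which were averaged as 1 replicate. The plan assumed plain counts. The deposited tables show 0 other columns of per-sample values.

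Counts were rounded and tested per cell type with edgeR 4.0.16 (R 4.3.3): TMM scaling, default filter, quasi-likelihood test, Benjamini-Hochberg adjustment over all genes tested, threshold 0.05. CPM used the same effective library sizes. Standard errors came from the fold change and F statistic. DESeq2 1.42.0, limma 3.58.1, other scalings and filters and fits without each library were alternatives. The fit was tested on simulated data, where it missed most of the changes at the spread of the TEC libraries and all of them at that of the PMN libraries. The labels do not say whether the libraries of a group came from separate mice, so that p-values measure only the spread between these samples, which may be technical. The members and gene lists were chosen with earlier results of these data known. Named genes were the 10 members, up to 2 genes of each pathway list and cell type with the smallest unadjusted p below 0.05, and the 3 genes most like Map3k5, while Gstm1, Mapk12 and Sfn, outside this rule, were named after their values were seen. Also outside it were the marker genes Prom1, Ptprc, Havcr1, Krt20, Lcn2 and Vcam1, and Gm49320 and Gm4202, which share sequence with a member. Hrk was mentioned because the study named it. Map3k15 and Elk1 were not analysed here. Positions and lengths came from GENCODE M21 (GRCm38), matched by symbol for 10 of 10 members, and promoter sequences were not used here.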

Additional observations from a re-analysis of the deposited data

How the results depend on the processing

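No gene passed the adjusted threshold in either cell type with RLE or upper-quartile factors, with limma-voom, with at least 10 counts in every library, or without predicted, Rik and sensory receptor genes, nor in PMN from the first or the second column of each library alone. DESeq2 gave 246 genes in TECs and 309 in PMN, and edgeR without a filter gave 425 in TECs and 0 in PMN. Leaving out 1 library gave 0 to 36 genes in TECs, 36 without the shallow glutamine replicate 2 and 4 without vehicle replicate 5, and 0 to 0 in PMN. With DESeq2, fits without 1 library, chosen after seeing the data, gave 85 to 656 genes in TECs and 947 to 1407 in PMN. The cause was not tested.

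Map3k5 in TECs kept its direction in every alternative, with log2 fold changes of 1.20 to 1.28 with all libraries. It passed the adjusted threshold with DESeq2 (0.000146) and in edgeR without a filter (0.000475), and the other adjusted p-values with all libraries were 0.0639 to 0.277. In PMN it stayed positive throughout and never passed. With 1 library left out the log2 fold change of Map2k7 in TECs ran from -0.30 to 0.18 in edgeR and in DESeq2 from -0.30 to 0.17, and summed with Gm49320 it was 0.0145. In PMN, with 1 library left out, Map2k3 ran from -0.14 to 0.26 in edgeR and from -0.16 to 0.20 in DESeq2, Mapk14 from -1.62 to 0.068 and from -1.64 to 0.011, and Ywhaz from -0.41 to 0.44 and from -0.46 to 0.40. In TECs the ratio of Map2k3 to Map2k6 ran from -0.63 to 0.14. All other members and ratios kept their sign. With a pseudocount of 5 every ratio kept its sign, and the PMN ratio of Map2k4 to Map2k7 changed from -4.56 to -1.49. Map2k6 and Map2k7 in PMN, and other members with a library under 10 counts, gave no value under the stricter filter. No paired analysis was possible because the labels give the TEC groups 1 replicate number in common, 3, and give the PMN libraries no replicate numbers at all.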
